A study of Mus musculus with 13 samples.

Results

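The genes described here are 10 mouse genes of fibrillar collagen matrix and mesenchymal cells: Col1a1, Col1a2, Col3a1, Col5a1, Col5a2, Bgn, Postn, Hapln1, Pdgfrb and Acta2. They were chosen by name, and each was found once among the 38377 gene identifiers of the count table, so that 10 of 38377 rows are reported across all 13 libraries.

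Fibrillar collagens are long triple helices that assemble outside the cell into the ropes of connective tissue. Col1a1 and Col1a2 encode the chains of type I collagen, Col3a1 encodes type III collagen, which is abundant in soft and embryonic tissue, and Col5a1 and Col5a2 encode type V collagen, which seeds and thins the fibrils. Around them lie biglycan (Bgn), a small proteoglycan that binds collagen fibrils, periostin (Postn), a matricellular protein that aids collagen cross-linking, and Hapln1, the link protein that fixes proteoglycans to hyaluronan and has no collagen partner. Pdgfrb encodes a receptor for platelet-derived growth factor carried by mesenchymal and perivascular cells, and Acta2 the smooth muscle actin of contractile cells.

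RNA was sequenced in bulk from 2 kinds of female mouse stem cell line. Extraembryonic endoderm (XEN) cells, which stand for the yolk sac endoderm lineage and were kept in serum medium, were wild type (2 libraries), deleted for Xist on the paternal X (dXist, 3), wild type treated with 20 uM 5-aza-2'-deoxycytidine (Aza, an inhibitor of DNA methylation; 2), or deleted and treated (2). Epiblast stem cells (EpiSC), which stand for the epiblast after implantation and were grown on matrigel with Activin and FGF2, comprised wild-type cells (2) and cells with a heterozygous Xist deletion (2). Xist is the RNA that silences an X chromosome in female cells, and the series compares cells with and without it. The labels do not say whether replicates, or the numbered dXist lines, were separate clones, so a p-value reflects no more than how far these libraries differ among themselves.

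Totals ran from 5848454 to 35247432 counts, with both treated wild-type XEN libraries the shallowest. CPM here is a gene's count scaled to a common library total with TMM factors, and 3 counts in 1 library correspond to 0.0840 to 0.495 CPM. Xist was at 1185 to 1701 CPM in wild-type XEN libraries with or without Aza, and at 1.21 to 5.02 CPM in untreated dXist XEN libraries. It was at 197 and 835 CPM in wild-type EpiSC and at 0.261 and 0.448 CPM in dXist EpiSC. The library labelled treated dXist XEN 2 held 233 CPM of Xist, against 13.3 CPM in its replicate, so the main values of the treated dXist group are also given without it. Transcripts that lack a poly(A) tail took over 10% of counts in 4 libraries (both treated wild-type XEN, and replicate 2 of each EpiSC genotype) and under 0.3% in the other 9. The former are called total-like and the latter polyA-like. In EpiSC each genotype therefore had 1 library of each type, whereas in XEN the total-like libraries were those of 1 group, and there library type and treatment cannot be told apart.

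The labelled cell types were checked against marker genes. All 12 epiblast markers exceeded 1 CPM in each EpiSC library, and their summed level was 1682 to 2514 CPM there and 201 to 1020 CPM in XEN. The 14 endoderm markers summed to 29920 to 101777 CPM in XEN and to 913 to 1499 CPM in EpiSC. Of 16 fibroblast markers, 9 reached 1 CPM in each wild-type EpiSC library, and 6 and 5 in dXist EpiSC libraries 1 and 2. The wild-type sets differed, with Lum only in library 1 and Twist2 only in library 2. The highest was Fbln1, at 30.7 to 45.9 CPM in EpiSC. Dpt, a dermal fibroblast matrix gene, was at 0 counts in all 4 EpiSC libraries, and Thy1 stood between 3.35 and 8.18 CPM.

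The genes are spread over the genome apart from a pair. On GRCm38, Col3a1 (1, 45311538 to 45349706, plus strand) and Col5a2 (1, 45374321 to 45503282, minus strand) lie end to end, 24.6 kb apart. Col1a1 lies on 11 (94936224 to 94953042), Col1a2 on 6 (4504814 to 4541544), Col5a1 on 2 (27886425 to 28039514), Postn on 3 (54361109 to 54391037), Hapln1 on 13 (89539796 to 89611652), Acta2 on 19 (34241090 to 34255590) and Pdgfrb on 18. Bgn lies on X (73483602 to 73495933), and is the only X-linked gene of the 10.

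Promoter windows of 250 bases before the transcription start were found for 7 of the 10 genes in the RefSeq table (GRCm38.p6). Those of Col3a1, Col5a1, Bgn and Postn are printed, because Col3a1 and Col5a1 differed most and least of the collagens between the EpiSC genotypes, Bgn is the X-linked gene, and Postn and Col3a1 share a motif. Capitals mark TATAAA, the core of a TATA box, and GGGCGG, the core of a GC box, each searched on both strands.
Col3a1, chr1:45311288-45311537, plus strand: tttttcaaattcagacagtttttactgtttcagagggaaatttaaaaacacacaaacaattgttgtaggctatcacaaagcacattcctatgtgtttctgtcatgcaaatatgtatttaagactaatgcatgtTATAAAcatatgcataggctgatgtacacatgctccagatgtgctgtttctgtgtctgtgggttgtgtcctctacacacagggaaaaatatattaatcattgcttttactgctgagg
Postn, chr3:54360857-54361106, plus strand: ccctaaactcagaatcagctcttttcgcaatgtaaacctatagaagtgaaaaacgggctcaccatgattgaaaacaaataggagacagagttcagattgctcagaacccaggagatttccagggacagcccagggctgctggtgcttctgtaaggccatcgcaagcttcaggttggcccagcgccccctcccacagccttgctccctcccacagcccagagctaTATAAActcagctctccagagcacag
Col5a1, chr2:27886175-27886424, plus strand: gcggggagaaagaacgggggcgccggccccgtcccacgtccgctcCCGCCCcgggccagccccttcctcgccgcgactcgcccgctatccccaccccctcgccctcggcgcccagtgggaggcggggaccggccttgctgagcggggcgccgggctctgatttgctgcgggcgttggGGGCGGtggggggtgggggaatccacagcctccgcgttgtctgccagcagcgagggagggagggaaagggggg
Bgn, chrX:73483351-73483600, plus strand: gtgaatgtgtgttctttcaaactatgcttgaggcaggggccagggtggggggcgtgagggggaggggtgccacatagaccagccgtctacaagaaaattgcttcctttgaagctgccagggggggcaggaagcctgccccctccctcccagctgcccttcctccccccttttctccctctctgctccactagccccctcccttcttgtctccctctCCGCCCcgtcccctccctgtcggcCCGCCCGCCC

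The collagen promoters differed in base composition. Col3a1 held 0 CpG in its window and 1 TATAAA, and Col5a1 held 28 CpG, 2 GGGCGG and no TATAAA. The window of Postn that starts at 54360857 held 4 CpG and 1 TATAAA, and its other RefSeq window held 3 CpG and neither motif. Bgn held 7 CpG and 3 GGGCGG, with overlapping copies at the end nearest the start. Col1a2, whose window is not printed, held 11 CpG, 2 GGGCGG and 1 CCAAT (the core bound by CCAAT factors), and Hapln1 and Acta2 held 2 and 4 CpG with none of the 3 motifs. Over all 32851 windows of that length in the table, the median was 6 CpG, and 12.4% held TATAAA, 32.7% GGGCGG and 33.8% CCAAT. A match is a string in the window and was not tested as a binding site.

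Wild-type EpiSC and XEN cells were compared to see where these genes are expressed. The fibrillar collagens and Postn were EpiSC genes in this series: all 5 collagens and Postn stood above 6.8 CPM in both wild-type EpiSC libraries and at no more than 0.64 CPM in wild-type XEN. By edgeR's quasi-likelihood test 8 of the 10 genes were called higher in EpiSC and 0 lower, where 16.8% of 19733 genes were called higher and 14.1% lower. Of the 8, Col1a2, Col3a1, Col5a2, Postn and Hapln1 passed the low-count filter only through EpiSC libraries. Their calls therefore add no weight to the levels. The median log2 difference of the 10 genes was 7.55, against 0.13 over all genes tested. Bgn and Pdgfrb were not called.

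Both chains of type I collagen were far higher in EpiSC. Col1a1 was at 384 and 207 CPM in wild-type EpiSC libraries 1 and 2 and at 0.640 and 0.342 CPM in libraries 1 and 2 of wild-type XEN. Col1a2 was at 231 and 256 CPM against 0.202 and 0.137 CPM, which is 10 counts over both XEN libraries. These differences were 602-fold for Col1a1 (log2 9.26, SE 0.57, adjusted p = 3.8e-05) and 1436-fold for Col1a2 (log2 10.52, SE 0.64, adjusted p = 3.8e-05), and the groups did not come near each other. Type III and type V collagen had the same order of groups. Col3a1 was at 139 and 142 CPM in EpiSC and at 0.303 and 0 CPM in XEN (925-fold, adjusted p = 0.00028). Col5a1 was at 71.0 and 73.0 CPM against 0.539 and 0.308 CPM (170-fold, adjusted p = 0.00018). Col5a2 was far lower than the others in EpiSC, at 6.88 and 7.87 CPM, and had 2 counts over both XEN libraries (adjusted p = 0.0018).

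The matrix and contractile genes divided. Postn was at 30.4 and 15.0 CPM in EpiSC and had 4 counts over both XEN libraries (336-fold, adjusted p = 0.001). Acta2 was at 137 and 144 CPM in EpiSC and at 18.1 and 8.58 CPM in XEN (log2 3.45, SE 0.93, adjusted p = 0.0233). Hapln1 was near the floor in both, at 0.665 and 0.232 CPM in EpiSC and 0.101 and 0.0684 CPM in XEN (5.29-fold, adjusted p = 0.032). It passed the low-count filter through the dXist EpiSC libraries, which share this fit. Bgn overlapped between the cell types, with 51.4 and 17.0 CPM in EpiSC and 30.9 and 26.1 CPM in XEN. Pdgfrb was at 12.5 and 14.9 CPM in EpiSC and slightly higher in XEN, at 16.9 and 17.2 CPM (log2 -0.25, SE 0.49, adjusted p = 0.719). The calls of Acta2 and Hapln1 were not stable, with adjusted p = 0.0935 and 0.0544 among polyA-like libraries alone. Leaving out any of the 4 wild-type libraries ended the call of Acta2 (adjusted p = 0.0703 to 0.126), and leaving out wild-type XEN library 1 or 2 or EpiSC library 1 ended that of Hapln1 (0.0961, 0.136 and 0.231).

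**Figure D1:**
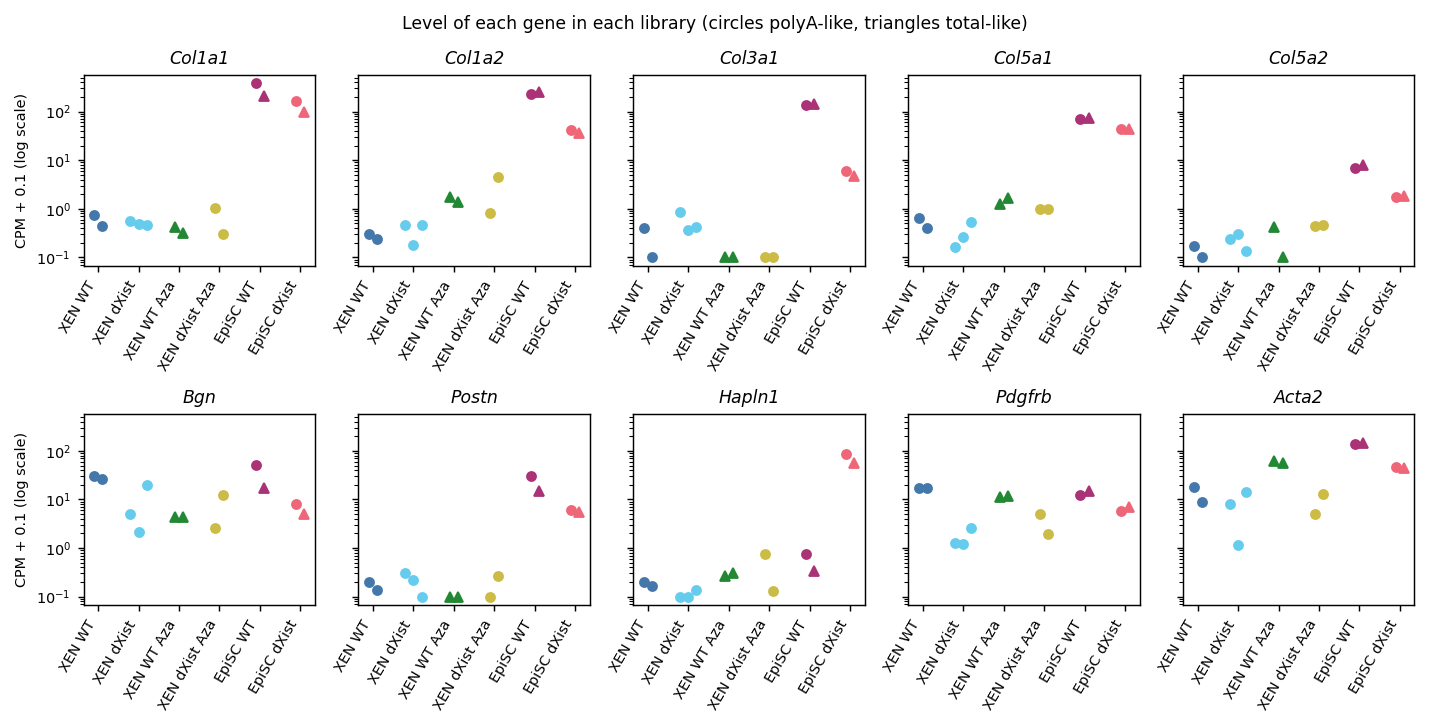
Level of each of the 10 genes in each of the 13 libraries, as CPM with 0.1 added on a log axis. Circles are polyA-like and triangles total-like libraries. The 5 collagens and Postn are high in the EpiSC groups only, Hapln1 is high only in EpiSC dXist, and Bgn, Pdgfrb and Acta2 are measured in every group.

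Per kilobase of exon (RPKM), a scale on which genes can be compared with each other, Acta2 led in wild-type EpiSC at 64.0 ± 2.25 RPKM (SD, n = 2). Col1a1 followed at 45.0 ± 19.1 RPKM, then Col1a2 at 19.6 ± 1.41, Col3a1 at 14.3 ± 0.221 and Col5a1 at 8.48 ± 0.168 RPKM. Libraries of neighbouring genes in this order did not overlap down to Col5a1. Bgn (5.61 ± 3.98 RPKM), Postn (2.61 ± 1.26) and Pdgfrb (2.50 ± 0.302) came next, and Bgn overlapped with Col5a1 and Postn, and Postn with Pdgfrb. Col5a2 was at 0.769 ± 0.0730 RPKM and Hapln1 at 0.0760 ± 0.0519 RPKM. In wild-type XEN the order was led by Acta2 (6.08 ± 3.08 RPKM), Bgn (4.67 ± 0.556) and Pdgfrb (3.11 ± 0.0348), and each collagen was below 0.1 RPKM in both libraries.

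Other genes of the matrix, taken from lists, were counted beside the 16.8% of all genes higher and 14.1% lower in EpiSC. The lists were chosen with earlier results of these data known, so the counts are no independent support. Of 15 tested collagens outside the 10, on a list of mostly fibrillar and fibril-associated types, 9 rose and 1 fell from XEN to EpiSC. Col8a1, a network collagen, stood at 77.2 ± 14.8 CPM (SD, n = 2) against 0.0169 CPM, and Col2a1, the cartilage collagen, at 27.3 ± 4.11 against 0.304 ± 0.285 CPM. Of 30 matricellular and elastic fibre genes, 18 rose and 5 fell: tenascin C (Tnc) stood at 319 ± 9.52 against 0.0847 ± 0.0232 CPM, and Sparc, a collagen-binding protein also secreted by endoderm, at 663 ± 2.35 against 16073 ± 981 CPM. Among 20 basement membrane genes 5 rose and 10 fell, with the type IV collagen Col4a2 at 126 ± 18.7 CPM in EpiSC and 13861 ± 1755 CPM in XEN. Of 31 collagen-processing genes 7 rose and 14 fell. The crosslinking enzyme Lox was at 34.7 ± 17.8 CPM in EpiSC and at 0 counts in wild-type XEN, and the prolyl hydroxylase P4ha2 was at 25.7 ± 4.42 against 1205 ± 215 CPM. Of 9 EMT transcription factors 5 rose and 1 fell. That one was Snai1, at 2.16 ± 0.280 CPM in EpiSC and 218 ± 49.2 CPM in XEN. Pdgfra, the receptor related to Pdgfrb, was at 1.93 ± 0.502 CPM in EpiSC and 640 ± 48.4 CPM in XEN (log2 -8.30, SE 0.57, adjusted p = 5.7e-05).

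The Xist deletion was then compared within EpiSC, where the collagens are expressed. All 5 fibrillar collagens, Bgn, Postn, Pdgfrb and Acta2 were lower in both dXist libraries than in either wild-type library, and Hapln1 was higher. These 9 lower and 1 higher genes without overlap stand beside 20.2% and 20.6% of 17132 genes tested. The median log2 difference of the 10 genes was -1.77, against -0.0033 over all genes. With 2 libraries a group and no term for library type, edgeR called 0 genes of 17132 in either direction (0% higher and 0% lower), so 0 of the 10 were called. Of all genes 1741 had an unadjusted p under 0.05, including all 10 described here (9 lower, 1 higher), and DESeq2 called 115 genes higher and 377 lower, with 1 and 6 of the 10.

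Since each genotype had 1 polyA-like and 1 total-like library, the comparison was also made within library type, by adding that term to the model. In EpiSC the term is the same as the replicate number. With it edgeR called 4.91% of genes higher and 6.53% lower. Of the 10 genes, 1 rose (Hapln1) and 8 fell, and Col5a1 was not called (log2 -0.71, SE 0.29, adjusted p = 0.0908). This fit has 1 residual degree of freedom and borrows its spread from all genes. One model of the whole series, 13 libraries with a term for type, takes its spread from the XEN libraries too and called 0 of the 10. Without the type term, leaving out any EpiSC library kept 9 of the 10 lower and 1 higher (median log2 -1.78 to -1.43). Such fits hold 1 library in a group, so their calls are not counted. "Rose" and "fell" below refer to the EpiSC fit with library type.

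Col3a1 had the largest decrease of the collagens. It was at 139 CPM in wild-type library 1 and 142 CPM in library 2, and at 5.80 and 4.53 CPM in dXist libraries 1 and 2. The dXist mean was 27.2-fold lower (5.16 ± 0.895 against 140.3 ± 2.17 CPM, SD, n = 2 each), a gap far wider than the spread within either genotype. The log2 change was -4.74 (SE 0.34, adjusted p = 1.4e-39), and -4.74 (SE 0.30, adjusted p = 0.102) without the library-type term. Its neighbour Col5a2 was at 6.88 and 7.87 CPM in wild-type cells, against 1.65 and 1.70 CPM in dXist, 4.40-fold lower (log2 -2.10, SE 0.39, adjusted p = 4.6e-06).

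Both chains of type I collagen fell. Col1a2 was at 231 and 256 CPM in wild-type cells, against 42.5 and 36.4 CPM in dXist, 6.17-fold lower (log2 -2.60, SE 0.33, adjusted p = 1.4e-12). Col1a1 was at 384 and 207 CPM in wild-type cells, against 168 and 98.4 CPM in dXist, 2.22-fold lower (log2 -1.10, SE 0.34, adjusted p = 0.0137). The total-like library was the lower of each genotype for Col1a1 and not for wild-type Col1a2, so the ratio of the chains was compared within type. Per length, Col1a1 stood at 3.15 times Col1a2 in wild-type library 1 and 1.53 times in library 2, and at 7.50 and 5.12 times in dXist libraries 1 and 2. Both dXist ratios were above both wild-type ratios, and the difference of the chains' changes was not tested. Col5a1 had the smallest difference of the collagens, at 71.0 and 73.0 CPM in wild-type cells, against 43.0 and 43.2 CPM in dXist (1.67-fold lower). Relative to its chain partner, Col5a1 stood at 11.6 and 10.5 times Col5a2 per length in the wild type and at 29.4 and 28.7 times in dXist.

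**Figure D2:**
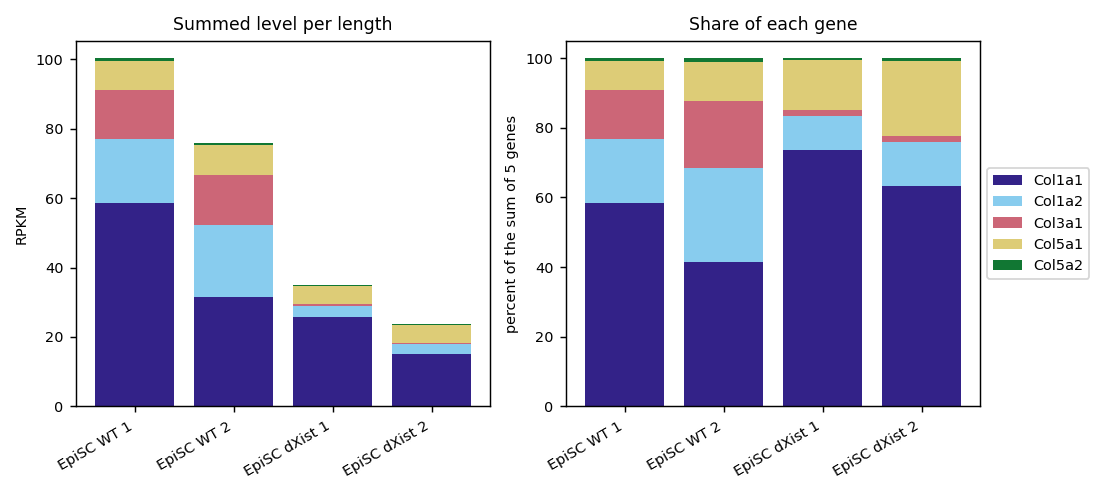
Fibrillar collagen RNA per length in the 4 EpiSC libraries: on the left the stacked RPKM of the 5 genes, on the right each gene's share of that sum. The sum is 100.3 and 76.0 RPKM in the wild type and 34.9 and 23.7 RPKM in dXist. On the right the Col3a1 segment shrinks while the Col1a1 and Col5a1 segments widen.

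The make-up of fibrillar collagen RNA differed as well. Summed per length, the 5 genes gave 100.3 and 76.0 RPKM in wild-type libraries 1 and 2 and 34.9 and 23.7 RPKM in dXist libraries 1 and 2. Col3a1 made up 14.1% and 19.0% of that sum in the wild type and 1.69% and 1.95% in dXist. The share of Col1a1 was 58.3% and 41.5% in the wild type and 73.5% and 63.4% in dXist, and that of Col1a2 was 18.5% and 27.1% against 9.80% and 12.4%. Col5a1 held 8.33% and 11.3% against 14.5% and 21.5%. The shares of the genotypes did not overlap for any of these 4 genes.

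Of the matrix genes, Bgn and Postn fell and Hapln1 rose. Bgn was at 51.4 and 17.0 CPM in wild-type cells, against 8.04 and 4.88 CPM in dXist, 5.30-fold lower (log2 -2.23, SE 0.34, adjusted p = 6.9e-09). Postn was at 30.4 and 15.0 CPM in wild-type cells, against 6.10 and 5.40 CPM in dXist, 3.95-fold lower (log2 -1.88, SE 0.35, adjusted p = 6.6e-06). For both genes the wild-type libraries differed more from each other than the dXist libraries did, and the total-like library was the lower. Within type, log2(CPM + 0.2) of Bgn differed by -2.65 in the polyA-like and -1.76 in the total-like pair, and that of Postn by -2.28 and -1.44.

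Hapln1 went the other way by the largest factor of the 10 genes. It was at 0.665 and 0.232 CPM in libraries 1 and 2 of the wild type, against 84.5 and 55.2 CPM in dXist libraries 1 and 2, 156-fold higher (69.9 ± 20.7 against 0.448 ± 0.307 CPM, SD, n = 2 each). The log2 change was 7.30 (SE 0.42, adjusted p = 2.4e-62), and 7.25 (SE 0.58, adjusted p = 0.102) without the library-type term. Hapln1 passed the low-count filter through its dXist level alone, so the call adds no weight to the levels. Per length the dXist level, 11.8 ± 3.50 RPKM, was above those of Col1a2 (3.17 ± 0.343), Col5a1 (5.07 ± 0.0179) and Col3a1 (0.526 ± 0.0912) in the same cells. In the 9 XEN libraries Hapln1 reached no more than 0.671 CPM.

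The receptor and the actin fell too. Acta2 was at 137 and 144 CPM in wild-type cells, against 45.5 and 45.2 CPM in dXist, 3.10-fold lower with close replicates (log2 -1.60, SE 0.30, adjusted p = 5.5e-06). Pdgfrb was at 12.5 and 14.9 CPM in wild-type cells, against 5.82 and 6.93 CPM in dXist, 2.15-fold lower (log2 -1.07, SE 0.36, adjusted p = 0.0277). In bulk RNA, fewer cells that express a gene and less RNA per cell cannot be told apart, for these and all genes described.

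**Figure D3:**
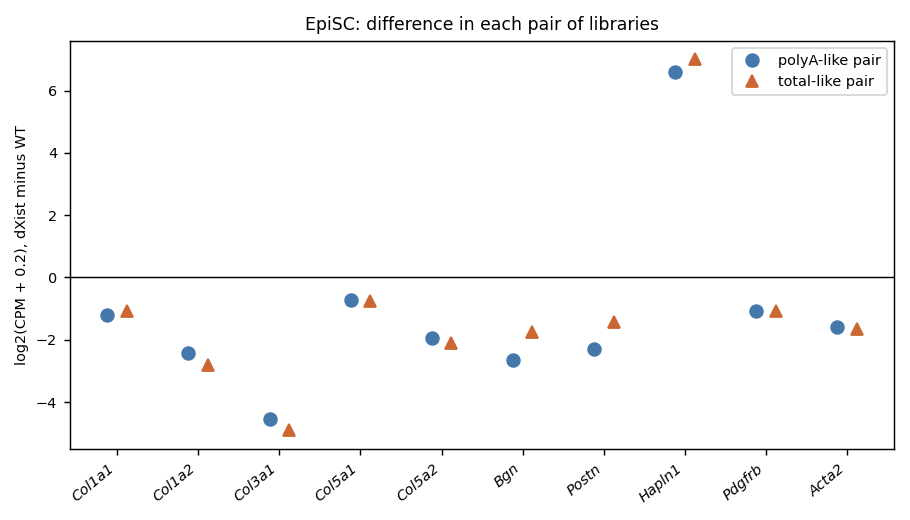
Difference between EpiSC dXist and wild type within each library type, as log2(CPM + 0.2), for the 10 genes. Circles are the polyA-like pair and triangles the total-like pair. Both pairs lie below 0 for 9 genes, from -0.72 for Col5a1 to -4.91 for Col3a1, and above 6.6 for Hapln1.

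Related matrix genes were counted in the same fit with library type, beside 4.91% of all genes higher and 6.53% lower. Their lists, too, were chosen with earlier results of these data known. Some tested genes passed the low-count filter through their wild-type levels. Examples are Col19a1 (mean 1.82 CPM in wild-type cells against 0.014 CPM in dXist) and, of the matricellular list, Sparcl1 (1.30 against 0.114 CPM). Any call of such a gene carries no weight of its own. Of 15 other collagens, mostly fibrillar and fibril-associated types, 6 fell and 1 rose (list median -0.77 on the log2 scale, all genes 0.01). Col12a1, a collagen on the surface of type I fibrils, stood at 65.7 ± 17.4 CPM in wild-type cells, against 6.17 ± 1.25 CPM in dXist (SD, n = 2 each, adjusted p = 1.3e-21). Col11a1, a partner of type V collagen, stood at 84.4 ± 34.3 against 15.1 ± 0.265 CPM (adjusted p = 1.5e-12), and Col14a1, another fibril-surface collagen, at 4.67 ± 2.02 against 0.490 ± 0.139 CPM. None of 4 type VI collagens was called (median -0.61), with Col6a1 at 15.9 ± 0.251 against 9.18 ± 0.912 CPM (adjusted p = 0.138).

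Of the 11 small leucine-rich proteoglycans, the family of Bgn, 7 did not pass the low-count filter, and the other 4 passed it through their wild-type levels, so their count carries no weight of its own. Decorin (Dcn), which also coats collagen fibrils, was at 8.01 and 7.32 CPM in wild-type cells, against 0.168 and 0.131 CPM in dXist (log2 -5.60, SE 0.53, adjusted p = 5.4e-23). The other 3 were Lum, Fmod and Ogn, named here after their values were seen, which averaged 0.761, 1.21 and 1.91 CPM in wild-type cells, against 0, 0.0280 and 0.0420 CPM in dXist. Among 30 matricellular and elastic fibre genes 15 fell and 0 rose (median -1.17). Tnc was at 319 ± 9.52 CPM in wild-type cells, against 65.1 ± 6.58 CPM in dXist, the microfibril gene Fbn2 at 70.0 ± 8.12 against 14.5 ± 0.302 CPM, and Tgfbi, a TGF-beta-induced adhesion protein, at 86.3 ± 4.87 against 21.6 ± 0.210 CPM. All 3 had adjusted p of 4.7e-09 or less.

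Of 31 enzymes and chaperones that build and crosslink collagen, 7 fell and 1 rose (median -0.14). The crosslinking enzymes Lox and Loxl2 stood at 34.7 ± 17.8 and 97.4 ± 53.9 CPM in wild-type cells, against 9.51 ± 2.23 and 30.7 ± 8.37 CPM in dXist (adjusted p = 3.9e-06 and 9.1e-06), and the prolyl hydroxylase P3h2 at 5.21 ± 2.53 against 1.08 ± 0.174 CPM. Of 18 basement membrane genes 3 fell (median -0.13), namely Col4a2, Nid1 and Col4a1 (log2 -1.22, -1.20 and -1.15). The type IV collagen Col4a1 stood at 199.8 ± 26.7 against 87.7 ± 0.976 CPM. Of 14 hyaluronan matrix genes, the setting in which Hapln1 acts, 2 fell and 0 rose: the proteoglycan Ncan stood at 13.8 ± 1.96 against 5.55 ± 0.405 CPM, and the hyaluronan receptor Cd44 at 31.5 ± 16.9 against 13.3 ± 2.63 CPM. Hapln1 thus rose without a rise of any tested gene of that list.

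Of the signalling and transcription factor lists, only that of the PDGF pathway held calls in both directions. Of 16 TGF-beta pathway genes, whose ligands are known to induce collagen, 4 fell and 0 rose. The ligands Tgfb3 and Tgfb2 stood at 19.0 ± 3.94 and 33.9 ± 21.8 CPM in wild-type cells, against 2.41 ± 0.0791 and 9.39 ± 2.37 CPM in dXist (adjusted p = 3.4e-12 and 1.4e-05), and the receptor Tgfbr1 at 57.5 ± 21.5 against 28.0 ± 4.38 CPM. Of 5 PDGF pathway genes besides Pdgfrb, the ligand Pdgfc fell (12.1 ± 3.29 to 3.02 ± 0.446 CPM, adjusted p = 9.4e-06) and the ligand Pdgfb, which binds Pdgfrb, rose (3.67 ± 1.95 to 10.7 ± 1.64 CPM, adjusted p = 0.00031). Of 9 EMT transcription factors 5 fell and 0 rose (median -0.93). Prrx1, a regulator of limb and craniofacial mesenchyme, stood at 7.63 ± 5.03 against 0.289 ± 0.224 CPM, Zeb2 at 67.6 ± 24.6 against 23.1 ± 4.48 CPM, and Twist1 at 3.37 ± 1.04 against 0.874 ± 0.189 CPM. Of these, Prrx1 passed the low-count filter through its wild-type level. Of 16 smooth muscle contractile genes 5 fell and 1 rose (median -0.70). The myosin light chain Myl9 stood at 32.8 ± 10.8 CPM in wild-type cells, against 9.20 ± 2.88 CPM in dXist (adjusted p = 2.2e-06), while the muscle filament gene Des rose from 12.7 ± 1.30 to 30.2 ± 0.517 CPM (adjusted p = 0.0015).

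**Figure D4:**
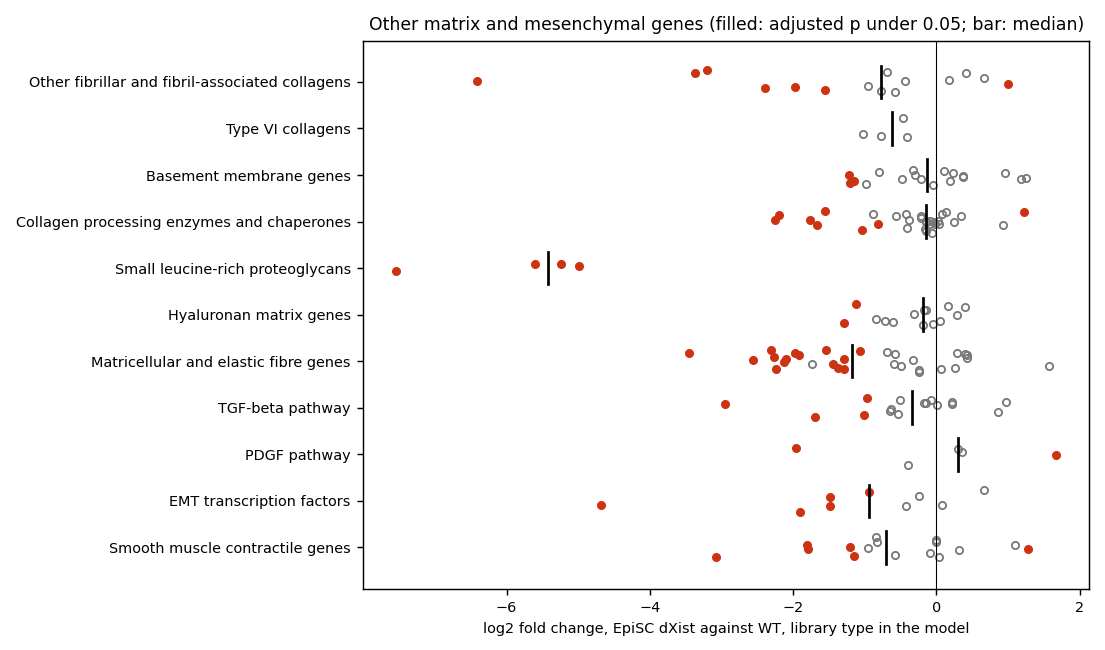
Log2 fold change of the tested genes of 11 matrix and mesenchymal lists in EpiSC dXist against wild type, with library type in the model. Filled points have an adjusted p under 0.05, open points do not, and the bar is the list median. Of the matricellular and elastic fibre genes 15 points are filled, all below 0, and the 4 small leucine-rich proteoglycans shown are those whose wild-type level passed the filter.

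Markers of several cell types moved with the collagens between the EpiSC genotypes, and their part in the result was not tested. Of 11 tested fibroblast markers 5 fell and 0 rose: Dcn, Lum, Prrx1, Cd34 and Twist1. Dcn, Lum and Prrx1 passed the low-count filter through their wild-type levels, so their fall carries no weight of its own. Dcn and Lum are also counted among the proteoglycans, and Prrx1 and Twist1 among the EMT factors. The 16 listed summed to 72.3 and 78.9 CPM in wild-type cells, against 57.0 and 64.1 CPM in dXist. Fbln1, the largest of them, went the other way, at 30.7 and 35.0 against 45.9 and 40.9 CPM in libraries 1 and 2. Dpt was at 0 in all 4 libraries and Lum in both dXist libraries. Of 9 neural markers 3 fell, with sums of 501 and 844 CPM against 408 and 443 CPM. Sox1, a neural progenitor factor, stood at 18.7 ± 7.14 against 4.11 ± 1.44 CPM. Of 5 endothelial and blood markers 3 fell, with sums of 14.2 and 20.9 CPM against 6.36 CPM in both. Among those tested, Cdh5 averaged 0.448 CPM in wild-type cells against 0.084 CPM in dXist, and Tek 1.73 against 0.327 CPM. Both passed the low-count filter through their wild-type levels, so that count carries no weight of its own. Of 7 primitive streak and mesoderm markers 1 fell (Foxc1, 21.1 ± 7.74 to 1.95 ± 0.171 CPM) and 1 rose (Tbx20, 2.67 ± 0.890 to 13.8 ± 1.56 CPM), with sums of 27.0 and 48.4 CPM against 28.8 and 29.7 CPM. Of 10 endoderm markers 2 fell (sums 1353 and 1499 against 913 and 999 CPM), and of 5 trophoblast markers 1 rose (28.6 and 36.4 against 47.7 and 57.2 CPM). Of 12 epiblast markers 3 rose, Utf1, Otx2 and Pou5f1, and their sums overlapped (1682 and 2302 against 1810 and 2514 CPM). Pou5f1, the pluripotency factor, stood at 229 ± 25.6 in the wild type and 507 ± 160 CPM in dXist (adjusted p = 0.021).

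In XEN cells the paternal Xist deletion was examined in 2 wild-type and 3 dXist libraries, all polyA-like. The collagens were near the detection limit in both genotypes, and the genes with measurable levels were Bgn, Pdgfrb and Acta2. Of the 10 genes 7 passed the low-count filter, and Col3a1, Postn and Hapln1 did not. By edgeR 0 of these 7 were called, where 0% of 18393 genes were called higher and 0.0217% (4 genes) lower. Of all genes 1973 had an unadjusted p under 0.05, Pdgfrb among them, and DESeq2 called 197 genes higher and 309 lower, with Pdgfrb as 1 of them. Without overlap between the libraries were 0 higher and 3 lower of the 10 (Pdgfrb, Bgn and Hapln1, the last on 5 counts against 1), beside 13.9% and 14.6% of all genes.

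Pdgfrb was the clearest of them. It was at 16.9 and 17.2 CPM in libraries 1 and 2 of the wild type, against 1.16, 1.13 and 2.46 CPM in dXist libraries 1 to 3. All dXist libraries were far below the wild type, and the mean was 10.8-fold lower (1.58 ± 0.757, n = 3, against 17.1 ± 0.191 CPM, n = 2; log2 -3.43, SE 0.60, adjusted p = 0.152). Over 10 alternatives its log2 change ran from -3.91 to -3.24, and it was called in 5 of them. Without dXist library 3 Pdgfrb was called (adjusted p = 0.0212), and with the replicate block too (0.0270). The block gives dXist library 3 a term of its own, which takes it out of this comparison, so these calls are not separate support. Pdgfrb was not called with any other library of the 2 genotypes left out.

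Bgn divided the dXist libraries. It was at 30.9 and 26.1 CPM in wild-type cells, against 4.92, 2.07 and 19.5 CPM in dXist libraries 1, 2 and 3. The third dXist library lay near the wild type, and the mean was 3.23-fold lower (8.82 ± 9.32 against 28.5 ± 3.39 CPM; log2 -1.70, SE 0.88, adjusted p = 0.524). Without that library the log2 change was -3.05 (adjusted p = 0.0761). Acta2 overlapped, with 18.1 and 8.58 CPM in wild-type cells, against 8.08, 1.05 and 14.2 CPM in dXist (log2 -0.80, SE 0.82, adjusted p = 0.761). Here too library 3 was the highest dXist library. Markers of extraembryonic endoderm were detected in all, and Fbln1, a matrix gene among the fibroblast markers, had 20.9 ± 24.7 CPM in wild-type cells, against 0.846 ± 0.776 CPM in dXist (adjusted p = 0.248).

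The fibrillar collagens of XEN cells stayed below 1 CPM in all 5 untreated libraries. Col1a1 was at 0.342 to 0.640 CPM in wild-type cells, against 0.356 to 0.466 CPM in dXist, Col1a2 at 0.137 to 0.202 and 0.0780 to 0.366 CPM, and Col5a1 at 0.308 to 0.539 and 0.0665 to 0.428 CPM. Col3a1 was at 0.303 and 0 CPM in wild-type cells, against 0.765, 0.273 and 0.321 CPM in dXist. The genotypes overlapped for each collagen, and a difference was not detectable at this depth. None of the 11 matrix and mesenchymal lists had a gene called between the XEN genotypes, where edgeR called 4 genes in all. Without dXist library 3 it called 154 genes higher and 356 lower, and the lists were not recounted.

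**Figure D5:**
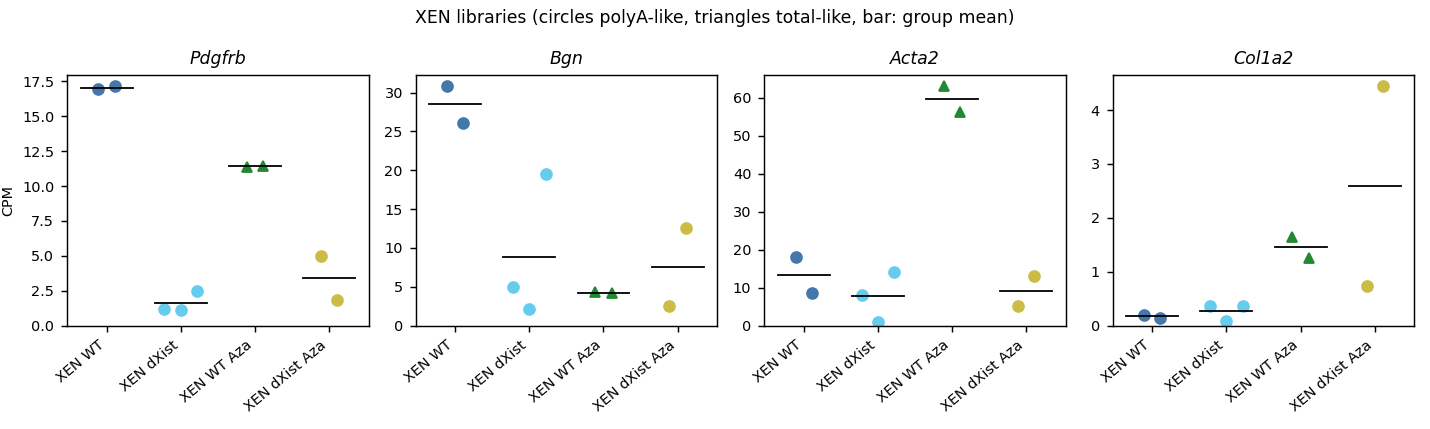
Level in CPM of Pdgfrb, Bgn, Acta2 and Col1a2 in the 9 XEN libraries, with a bar at each group mean. Circles are polyA-like and triangles total-like libraries. Pdgfrb separates the untreated genotypes, Bgn of the third dXist library lies near the wild type, and Col1a2 lies above untreated levels in the 4 treated libraries.

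Whether the difference between dXist and wild type itself differed between EpiSC (heterozygous deletion) and XEN (paternal deletion) was tested as an interaction over the 9 untreated libraries. None of the 10 genes was called, where 0.00507% of 19733 genes were called higher and 0.00507% lower (1 gene each). Of all genes 2041 had an unadjusted p under 0.05, including 2 of the 10 with a positive and 3 with a negative difference, and DESeq2 called 216 and 231 genes, with 2 and 2 of the 10. The change of Hapln1 was higher in EpiSC than in XEN by 9.72 on the log2 scale (SE 1.26, adjusted p = 0.0608), and that of Col3a1 lower by a difference of -6.27 (SE 1.15, adjusted p = 0.144). Col1a2 had a difference of -3.25 (SE 0.71, adjusted p = 0.211). Pdgfrb had one of 2.37 (SE 0.67, adjusted p = 0.324), its log2 change being the more negative in XEN, and Col5a1 of 0.27 (SE 0.77, adjusted p = 0.964). The XEN side rests on 5 wild-type counts and 1 dXist count for Hapln1, 9 and 39 for Col3a1, and 10 and 23 for Col1a2. Hapln1 passed the low-count filter through the dXist EpiSC libraries, and Col3a1 and Col1a2 through EpiSC libraries. Among 14 alternatives Hapln1 was called in 4, Col3a1 in 5, Col1a2 in 3 and Pdgfrb in 3. Leaving out XEN dXist library 3 gave 3 calls among the 10, beside 386 higher and 284 lower of 19468 genes.

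Aza, which traps DNA methyltransferases and lowers DNA methylation, was compared with no treatment in each XEN genotype. In wild-type XEN 0 of the 7 tested genes were called, where 0.549% of 18393 genes were called higher and 0.0326% lower. Of all genes 2279 had an unadjusted p under 0.05, among them Col1a2 and Acta2 (higher) and Bgn (lower), and DESeq2 called 529 genes higher and 117 lower, with 0 of the 7. Acta2 was at 18.1 and 8.58 CPM in untreated and 63.0 and 56.2 CPM in treated wild-type cells, 4.46-fold higher without overlap (log2 2.31, SE 0.96, adjusted p = 0.367). Col1a2 was at 0.202 and 0.137 CPM against 1.65 and 1.26 CPM (log2 3.21, SE 1.14, adjusted p = 0.299), or 10 counts against 22 in the shallower libraries. Col1a2 passed the low-count filter through the treated XEN libraries, so its p-values add no weight to the levels. Bgn was at 30.9 and 26.1 CPM against 4.29 and 4.20 CPM, 6.71-fold lower without overlap (log2 -2.59, SE 1.05, adjusted p = 0.362). Col3a1 and Postn had 0 counts in both treated libraries, where 3 counts over the group would be 0.192 CPM. The treated libraries were total-like and the untreated ones polyA-like, so library type and Aza cannot be told apart here.

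In dXist XEN cells, treated and untreated libraries were all polyA-like, though 1 of the 3 transcripts without poly(A) tails was called higher with Aza. Again 0 of the 7 tested genes were called, where 0.0707% of 18393 genes were called higher and 0.00544% lower (13 and 1 genes, or 24 and 5 with DESeq2 size factors). Of all genes 4921 had an unadjusted p under 0.05, Col1a2 and Col5a1 among them (both higher), and DESeq2 called 1619 genes higher and 1286 lower, with Col1a2 as the 1 of the 7. Col1a2 was at 0.366, 0.0780 and 0.356 CPM in untreated libraries 1 to 3 and at 0.727 and 4.44 CPM in treated libraries 1 and 2, 9.69-fold higher without overlap (log2 3.26, SE 0.94, adjusted p = 0.0895). Since Col1a2 passed the low-count filter through the treated XEN libraries, its p-values and its DESeq2 call add no weight to the levels. The higher value came from the library labelled treated dXist 2, which holds Xist, and without it the log2 change was 1.39 (adjusted p = 0.351). Without that library edgeR called 2004 of all genes higher and 2726 lower. Col5a1 was at 0.0665, 0.156 and 0.428 CPM against 0.895 and 0.868 CPM, 4.07-fold higher (log2 2.00, SE 0.88, adjusted p = 0.181), and 1.57 was the lowest log2 change over its alternatives.

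The other genes did not separate as clearly in treated dXist cells. Col3a1 had 0 counts in both treated libraries and was at 0.273 to 0.765 CPM in the 3 untreated ones, at least 7.22-fold lower with Aza against a floor of 3 counts over the group. Hapln1 was at 0, 0 and 0.0356 CPM untreated and at 0.671 and 0.0334 CPM treated, so the replicates differed. It did not pass the filter, and its level in treated library 1 rests on 12 counts. Without the library labelled treated dXist 2 it passed through that 1 library and had an adjusted p of 0.0330, with the lone treated library assumed to vary like the other groups. Pdgfrb was at 4.98 and 1.80 CPM in treated against 1.16, 1.13 and 2.46 CPM in untreated dXist cells (log2 1.09, SE 0.58, adjusted p = 0.251), below all 4 wild-type values with or without Aza. Bgn (2.46 and 12.5 CPM) and Acta2 (5.04 and 13.1 CPM) overlapped with untreated dXist cells. Without the library labelled treated dXist 2 the log2 changes of Pdgfrb, Bgn and Acta2 were 1.61, -1.88 and -0.66 (adjusted p = 0.0623, 0.264 and 0.693). Of the matrix lists, 1 gene was called in treated dXist cells, the crosslinking enzyme Loxl2, at 657 ± 212 CPM against 91.3 ± 26.6 CPM (n = 2 and 3, log2 2.86, SE 0.36, adjusted p = 0.0498). Leaving out untreated dXist library 1 or 2 or treated library 1 ended that call, since edgeR then called 0 of all genes. In treated wild-type cells no gene of these lists was called, and Loxl2 stood at 462 ± 10.9 against 186 ± 34.4 CPM (adjusted p = 0.195).

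The difference between the Aza effects in the 2 genotypes was tested as an interaction. None of the 7 tested genes was called, where 0.00544% of 18393 genes were called higher and 0.239% lower. Of all genes 1472 had an unadjusted p under 0.05, none of the 7 among them, and DESeq2 called 79 genes higher and 139 lower, with 0 of the 7. The difference was 2.36 for Bgn (SE 1.34, adjusted p = 0.669), -2.08 for Acta2 (SE 1.26, adjusted p = 0.674), 1.51 for Pdgfrb (SE 0.86, adjusted p = 0.669) and 0.05 for Col1a2 (SE 2.06). The last is an estimate with an error far larger than itself, and does not show that Col1a2 responded alike. Without the library labelled treated dXist 2 the differences were 0.72 for Bgn, -2.96 for Acta2, 2.04 for Pdgfrb and -1.80 for Col1a2 (the lowest adjusted p was 0.130, for Pdgfrb), and edgeR called 581 of all genes higher and 1024 lower.

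Across the 13 libraries the levels of the collagens followed each other closely, as log2(CPM + 0.5). Pearson's r ran from 0.880 (Col3a1 with Col5a1) to 0.976 (Col1a1 with Col5a1) among the 5 collagens, and Postn had r of 0.955 to 0.981 with them. Acta2 had r of 0.664 to 0.774 with the collagens, Hapln1 0.286 to 0.641, Pdgfrb 0.315 to 0.412 and Bgn 0.277 to 0.447. These values describe 13 libraries that fall into 2 cell types with a wide gap for the collagens, and carry no test. Among 14233 other genes with a mean of at least 1 CPM, those most like Col3a1 included Lmcd1 (r = 0.987), AW551984 (0.985), Meox1 (0.985) and Igfbp7 (0.983). Meox1, a somite homeobox gene, averaged 15.7 CPM in wild-type EpiSC against 1.22 CPM in dXist EpiSC, and Igfbp7, a secreted growth factor-binding protein, 32.7 and 5.32 CPM. Those most like Hapln1 were Ky (r = 0.991), Fam189a1 (0.962), Rmnd1 (0.956), Tmem154 (0.947) and Stxbp5 (0.933). Ky, a muscle cytoskeletal gene, averaged 0.341 CPM in wild-type EpiSC against 6.66 CPM in dXist EpiSC, and Stxbp5, a regulator of vesicle release, 29.1 and 73.1 CPM.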

How the data were processed

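Per the submitters' processing notes, reads were checked with FastQC, aligned with STAR 2.7.9a and counted with featureCounts 2.0.1 on GRCm38 (mm10). The authors deposited 1 table of raw counts (reads assigned to each gene, not normalised) with 38377 identifiers. The labels' protocols name NEBNext Ultra and Tru-seq stranded kits together, for every library alike. Which library had which, the counting strand, annotation release and treatment of multi-mapped reads are not stated; antisense or overlapping transcripts may share reads with a gene. GENCODE vM21 named 38240 identifiers (99.6%). Tests ran in edgeR 4.0.16 under R 4.3.3, using TMM scaling, filterByExpr, robust quasi-likelihood F test, and Benjamini-Hochberg adjustment over all genes tested, with a gene called at an adjusted p under 0.05. SE is the log2 change divided by the root of F. Fits used 4 EpiSC libraries (2 residual degrees of freedom), 9 XEN libraries (5) or 9 untreated libraries (5). Folds are ratios of mean CPM, and RPKM divides CPM by the union of exons. A library was total-like where mt-Rnr1, mt-Rnr2 and Rn7sk took over 5% of counts. In EpiSC, where replicate number equals library type, deviations of same-numbered libraries correlated (r = 0.77); in XEN they did not (r from -0.13 to 0.10). Replicates of each group differed by more than sampling noise. Chi-square per degree of freedom was 3.57 in treated wild-type XEN, the shallowest pair, and 67.4 to 469 in all other pairs. The fits were tested on simulated data. Alternatives were DESeq2 1.42.0 (size factors, and Wald test), no low-count filter, each library left out, a replicate block, all 13 libraries with library type, and, for the cell types, polyA-like libraries alone.

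Named genes were all 10 members, per list up to 3 called genes with the smallest adjusted p, at least 1 CPM and no overlap (or the 1 gene with the smallest adjusted p where none was called, of which those bearing on a result are printed), and the 5 genes most like Col3a1 and Hapln1, of which 1 is not reported here. Members and lists were chosen with earlier results of these data known.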

Additional observations from a re-analysis of the deposited data

How the results depend on the processing

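The number of the 10 genes called between EpiSC genotypes was 0 with the tests' stated design and 7 without a low-count filter, 7 by DESeq2 and 9 with the replicate block (paired by library type), and 0 to 5 with a library left out. For the XEN deletion it was 0, and 1 without the filter, by DESeq2, with the replicate block and over all 13 libraries, and 0 to 1 with a library left out. Aza in wild-type XEN gave 0, and 2 without the filter; Aza in dXist XEN gave 0, and 1 without the filter, by DESeq2 and over all 13 libraries, and 0 to 1 with a library left out. The cell-type difference of the deletion gave 0, and 3 without the filter, 4 by DESeq2, 4 with the replicate block and 0 to 3 with a XEN dXist library left out. Over all genes it gave 281 higher and 335 lower without the filter, and 216 and 231 by DESeq2. With the replicate block it gave 588 and 485, and without XEN dXist library 3 it gave 386 and 284. The cause of these differences was not tested. Counts over all genes differed likewise: 146 higher and 530 lower in EpiSC, 303 and 381 in XEN, 519 and 228 with Aza in the wild type and 1377 and 1373 in dXist without the filter, and 112 and 256 in XEN with the replicate block.

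No log2 change turned its sign between EpiSC genotypes under any alternative run. Those that did were uncalled. With the replicate block, Bgn turned to 1.05 for Aza in dXist XEN, and Bgn and Acta2 to 0.92 and 0.38 for the cell-type difference of the deletion. With a library left out, ranges were: Col1a1 -0.67 to 0.25 for the XEN deletion, Bgn -0.58 to 0.89 between cell types, and Bgn -1.22 to 0.69 and Col5a1 -0.23 to 1.23 for the cell-type difference. For Aza in the wild type Col5a2 ran from -2.97 to 4.87, and for Aza in dXist Col1a1 ran from -1.01 to 1.19, Bgn from -1.88 to 1.13 and Acta2 from -0.66 to 1.02. For the difference of the Aza effects Col1a1 ran from -0.19 to 1.94, Col1a2 from -1.80 to 0.89, Col5a1 from -0.33 to 1.11 and Col5a2 from -3.38 to 4.47. Collagen differences within XEN rest on few counts, which limits what could be detected.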
